A study of Mus musculus with 8 samples.

Results

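The genes of 6 sort markers and stem antigens were followed across all 4 groups of a mouse heart array study. They are Kit, which encodes the receptor c-kit, its ligand gene Kitl, Ptprc, which encodes CD45, and the genes of the surface antigens Sca-1 (Ly6a), CD34 (Cd34) and CD133 (Prom1). Every probe carrying one of these 6 gene names in the array design was taken, which gave 8 probes for 6 genes among 55681 probes for 35019 gene names. The genes were taken by name and not by a measured value.

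RNA was hybridised to 8 one-colour arrays, 2 per group. Passage-8 cells were derived from sorted c-kit+/CD45+ cells after culture to passage 8. CD45-negative cells were primary c-kit+/CD45- cells, sorted from cultured explants of the left atrial appendage after a strong digestion with 0.25% trypsin and 0.1% collagenase D. CD45-positive cells were primary c-kit+/CD45+ cells sorted from such cultures after a weak digestion with 0.05% trypsin and 0.1% collagenase D. Left ventricle was RNA of biopsied ventricular wall, the study's control. All animals were C57BL/6 mice, 8 to 12 weeks old for the 3 cell groups and 12 weeks old for the ventricle, and the labels name no transgene, deletion or drug in any group. The design asks how the sorted cell types differ and how the cultured derivatives of the CD45-positive cells compare with both.

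c-kit is a receptor tyrosine kinase of class III. Its ligand, stem cell factor, is made by stromal and endothelial cells as a membrane-bound or shed protein, and binding makes the receptor dimerise and phosphorylate itself. Blood stem and progenitor cells, mast cells, melanocytes and the interstitial cells of Cajal depend on it, and c-kit has been used to sort candidate progenitor cells from the heart. CD45 is a receptor-type tyrosine phosphatase carried by nucleated blood cells, where it removes the inhibitory phosphate of Src-family kinases. Sca-1 is a small lipid-anchored protein of mouse blood stem cells that is also present on endothelium and stromal cells, CD34 is a sialomucin of blood progenitors, endothelium and fibroblast-like cells, and CD133 is a membrane protein of cell protrusions.

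Several features of the design bear on every value below. Digestion strength changed together with the sort gate, so their effects cannot be told apart. RNA of cells and RNA of ventricle were extracted with different reagents, which likewise cannot be told apart from the difference between cells and tissue. The cells came from cultures of the left atrial appendage, so culture and heart chamber also cannot be told apart from that difference. In each bulk sample, fewer cells of a type and less RNA per cell cannot be told apart. Separate cultures or animals are not stated for the replicates, so each p measures the spread between these samples only, and that spread may be technical.

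The arrays shared 1 slide and 1 scan, and the number of arrays limits the precision. Between 51.5% and 69.9% of spots per array were well above background, the scanner software's call used throughout. No spot was saturated. The CD45-negative pair stood apart from the other pairs: its pooled SD between replicates was 0.573 log2 units over 19110 genes, against 0.238 in passage-8 cells, 0.198 in CD45-positive cells and 0.394 in left ventricle. Summed signal of 18 macrophage markers was 3593% and 3659% of the array's 75th percentile in passage-8 cells, 6214% and 11954% in CD45-negative cells, 143199% and 141999% in CD45-positive cells, with 11693% and 10770% in left ventricle. The second CD45-negative array therefore held more of this signal than the first. Summed signal of 10 mesothelial and epicardial markers split the other way, at 5654% on the first CD45-negative array and 1751% on the second. All 12 cardiomyocyte markers passed as lower in each of the 3 cell groups against left ventricle. Of 18 endothelial markers, between 9 and 16 were well above background on each cell array, against 18 on both ventricle arrays. All 12 fibroblast markers were well above background on every array. Their summed signal was 141013% and 141351% in passage-8 cells and 202157% and 212962% in CD45-negative cells. It was 91857% and 87594% in CD45-positive cells, with 29744% and 45105% in left ventricle. The part of stromal cells in the CD45-positive values of Ly6a, Cd34 and Thy1 was not tested.

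The first 30 bases of each 60-base probe show what every array value rests on. They are printed 5′ to 3′ from the deposited scanner files, in lower case since no base is singled out.
Kit probe 1: gtcaggtacttaaggggccacaccattgag
Kitl probe 1: tcttcagtcacaacctgcagcctgtcgtta
Ptprc probe 1: gaggaaccagaacatgctgccaatggttct
Ly6a probe 1: tatgagttatagaagctccaaggtgggagt
Cd34 probe 1: ccagagatgagaggattgggtgtattctct
Cd34 probe 2: taaacaagatatcgggagccaccagagcta
Prom1 probe 1: acgaagaagtttgggaaaacaatactaggc
Prom1 probe 2: tgatgtgtgtcatcagcctgtcctgatgtt
In build mm9, as the files give positions, the Kit probe lies at chr5:76052394-76052453 (+), the Kitl probe at chr10:99558962-99559021 (+), the Ptprc probe at chr1:139961083-139961142 (-) and the Ly6a probe at chr15:74825553-74825612 (-). The Cd34 probes lie at chr1:196787392-196787451 and chr1:196785280-196785339, both on the plus strand. The Prom1 probes lie at chr5:44397410-44397469 and chr5:44384861-44384920, both on the minus strand. Exon or untranslated-region annotation of these positions was not used here. The Kit probe was spotted 2 times on every array, and the other 7 probes once.

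Each value below is log2 of the processed spot intensity minus the array's 75th percentile, so 0 is the level of that percentile, and values of different probes are not compared with each other. Differences are limma estimates in log2 units, the group named first minus the group named second. Testing a gene required that both arrays of one or other compared group detect it well above background. The threshold was an adjusted p under 0.05 (Benjamini-Hochberg, over all genes tested) together with a log2 difference of 1 or more in either direction. Of the 6 genes, 2 passed in CD45-negative against CD45-positive cells, where 21.8% of 21637 tested genes passed. In passage-8 against CD45-positive cells 3 passed, against 23.6% of 23572 genes. In passage-8 against CD45-negative cells 1 of the 5 genes tested passed, against 13.9% of 22901. Against left ventricle, 1 passed in CD45-negative cells, where 39.5% of genes passed, 3 in CD45-positive cells, where 38.1% passed, and 3 in passage-8 cells, where 39.2% passed. The comparisons share arrays and are not independent of each other. Arrays of both groups did not overlap for 3 of the 6 genes in CD45-negative against CD45-positive cells (68.9% of all tested genes), for 5 in passage-8 against CD45-positive cells (83%) and for 2 of 5 in passage-8 against CD45-negative cells (64.4%). Against left ventricle they did not overlap for 4 genes in CD45-negative cells (71.3%), 5 in CD45-positive cells (81.4%) and 6 in passage-8 cells (81.8%). With 2 arrays a group, separation alone is therefore the common case.

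**Figure D1:**
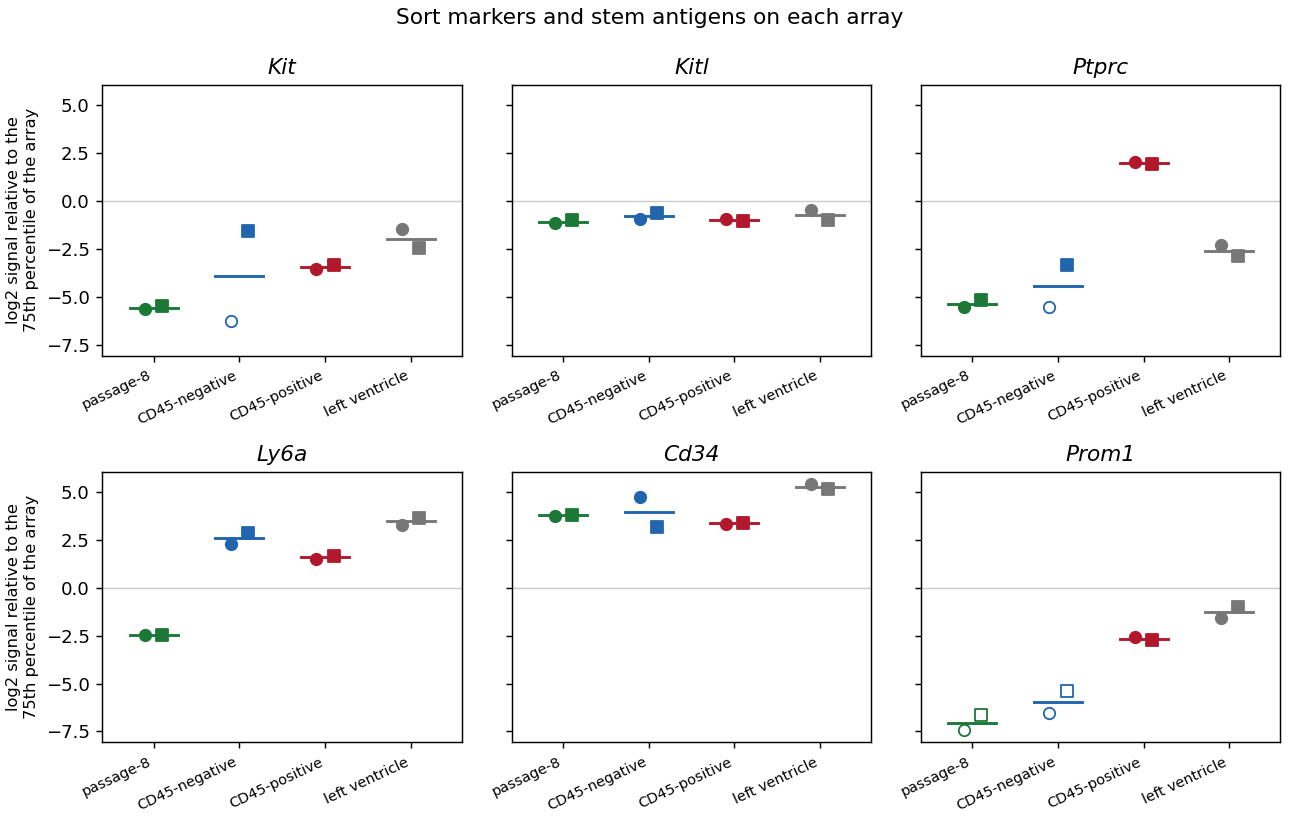
Normalized log2 signal (vertical axis, log2 units relative to the 75th percentile of the array) of the probe used for each of the 6 genes, with circles for replicate 1, squares for replicate 2 and a line at the group mean; open symbols are arrays where the probe was not well above background. Ptprc is above 0 only in CD45-positive cells, Ly6a is below 0 only in passage-8 cells, and the CD45-negative circle and square for Kit lie far apart.

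Ptprc, the gene of the sorted antigen CD45, was high in CD45-positive cells and low in the 3 other groups. It stood at -5.56 and -5.16 in passage-8 cells, at -5.51 and -3.33 in CD45-negative cells, at 2.04 and 1.94 in CD45-positive cells, and at -2.32 and -2.88 in left ventricle. Both CD45-positive arrays lay above all 6 others, and the probe was not well above background on the first CD45-negative array. CD45-negative cells were 85.4-fold lower than CD45-positive cells (log2 difference -6.42, SE 0.69, limma adjusted p = 0.00371). The call held in every alternative where Ptprc was tested, but its size did not: the log2 difference was -5.33 without the first CD45-negative array, -7.51 without the second and -4.36 with normexp background correction, which raises low signals. Ptprc was not tested where every array of both groups had to be well above background. Since CD45 was the sorting antigen, this difference is a check of the labels.

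Passage-8 cells descend from CD45-positive cells and were no longer sorted on CD45 by their labels. Their Ptprc signal was 163-fold lower than in CD45-positive cells (log2 difference -7.35, SE 0.69, adjusted p = 0.00168, limma), and with normexp the log2 difference was -5.60, and -6.27 in the authors' deposited table of values. Against CD45-negative cells the difference was -0.93 with a 95% interval of -2.64 to 0.77, and the arrays of both groups overlapped. Against left ventricle, CD45-positive cells were 24.1-fold higher (adjusted p = 0.00352) and passage-8 cells 6.78-fold lower (adjusted p = 0.0210, limma). The passage-8 difference missed the threshold when any 1 of its 4 arrays was left out, with adjusted p from 0.0545 to 0.105, and with normexp its log2 difference was -1.53. In CD45-negative cells the difference from ventricle was -1.83 and did not pass (limma adjusted p = 0.0754). Without the second CD45-negative array it was -2.92, in a fit that takes the spread from the other groups. From highest to lowest, the order was CD45-positive cells, left ventricle, CD45-negative cells and passage-8 cells, of which only the first pair of neighbours differed past the threshold.

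Kit, the gene of the other sorting antigen, did not differ past the threshold in any of the 6 comparisons. Its values were -5.64 and -5.49 in passage-8 cells, -6.24 and -1.54 in CD45-negative cells, -3.56 and -3.32 in CD45-positive cells, with -1.46 and -2.46 in left ventricle. The ventricle and the second CD45-negative array were highest, and the first CD45-negative array lowest. The 2 CD45-negative replicates were 4.70 log2 units apart, which is the largest gap between replicates among the 6 genes. The repeated spots bear on this gap. On the first CD45-negative array the spots gave intensities of 9.20 and 4.48, neither well above background, and on the second array 148 and 143, both well above it. On each passage-8 array only 1 of the 2 Kit spots was well above background, and the probe was counted as detected there.

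The Kit difference between CD45-negative and CD45-positive cells was -0.45 with a 95% interval of -3.93 to 3.03 (limma adjusted p = 0.838), which spans both directions. Without the first CD45-negative array it was 1.90, and without the second it was -2.80, in the other direction. Each such fit keeps 1 CD45-negative array and takes the spread from the other groups, so neither is given as a call. Passage-8 cells differed from CD45-positive cells by -2.13 (adjusted p = 0.316) and from left ventricle by -3.61 (adjusted p = 0.0845). In both comparisons all passage-8 arrays lay below the others, and both differences passed when either CD45-negative array was left out of the pooled spread, with adjusted p = 0.0149 against CD45-positive cells and 0.00215 against ventricle. CD45-positive cells differed from ventricle by -1.48 (adjusted p = 0.433). This too passed without either CD45-negative array, at adjusted p = 0.0281. The order from highest to lowest mean was left ventricle, the CD45-positive, the CD45-negative and the passage-8 cells, with no neighbours differing past the threshold.

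**Figure D2:**
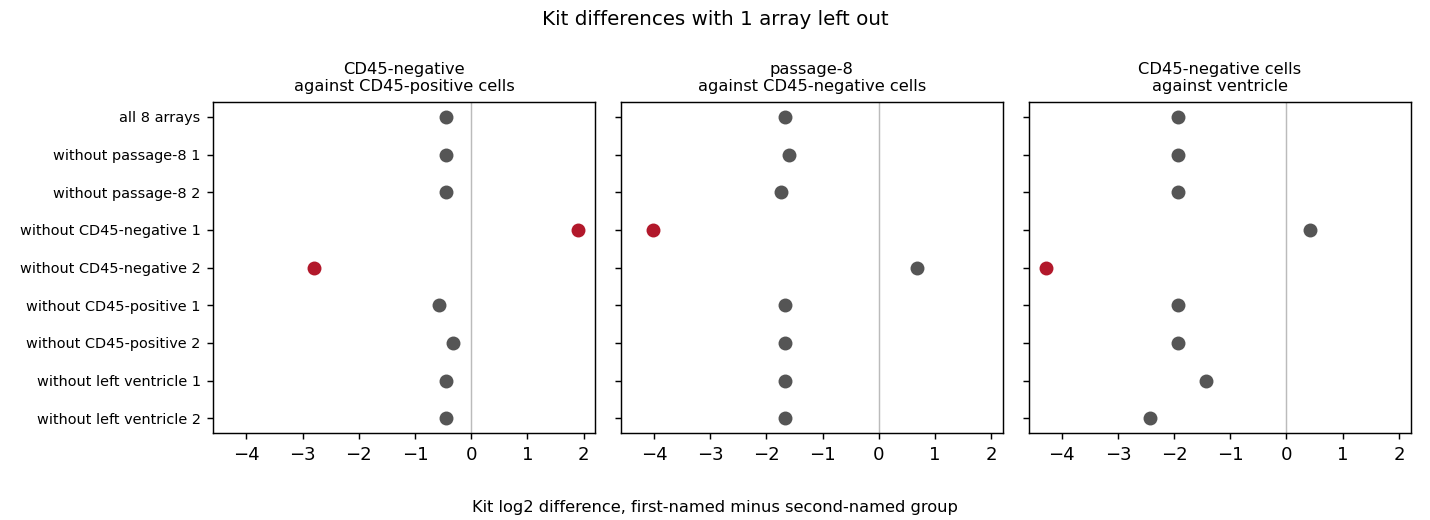
Kit log2 difference (horizontal axis, first-named minus second-named group) in the 3 comparisons that hold CD45-negative cells, with all 8 arrays and with each array left out in turn (rows); red points pass the threshold. In CD45-negative against CD45-positive cells the value is 1.90 without the first CD45-negative array and -2.80 without the second, and between -0.57 and -0.33 otherwise. Where 1 CD45-negative array is left, the colour rests on the spread of the other groups.

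The plot of Kit with 1 array left out shows the same dependence in the comparisons with passage-8 cells and with ventricle. Passage-8 against CD45-negative cells gave -1.67 (limma adjusted p = 0.463), -4.02 without the first CD45-negative array and 0.67 without the second. CD45-negative cells against ventricle gave -1.93 (limma adjusted p = 0.307), 0.42 without the first and -4.28 without the second. The second CD45-negative array, where Kit was high, also had higher signal of several leukocyte genes than the first. Laptm5, a lysosomal membrane protein of blood cells, stood at -4.63 and 0.50 on the CD45-negative arrays, and Vav1, a guanine nucleotide exchange factor of blood cells, at -4.53 and 0.82. Hdc, a mast cell marker that makes histamine, was split in the same way, at -0.89 and 2.35. Unlike most leukocyte markers, Hdc was not highest in the CD45-positive group. Other mast cell markers, among them Cpa3, Cma1, Tpsab1, Fcer1a and Ms4a2, were undetected on every cell array. The part of Laptm5, Vav1 and Hdc in the Kit values was not tested.

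Kitl, which encodes stem cell factor, was the steadiest of the 6 genes. It stood at -1.18 and -0.98 in passage-8 cells, -0.93 and -0.61 in CD45-negative cells, -0.93 and -1.07 in CD45-positive cells, with -0.47 and -0.98 in left ventricle. The probe was well above background on all 8 arrays, and the groups overlapped in 4 of 6 comparisons. No difference passed, the largest being -0.36 in passage-8 cells against ventricle (SE 0.26, limma adjusted p = 0.311). The interval for CD45-negative against CD45-positive cells was -0.42 to 0.87, and for passage-8 against CD45-positive cells -0.72 to 0.57. All 6 intervals lay within about 1 log2 unit of 0, which is narrow beside those of Kit.

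Ly6a, the Sca-1 gene, was lower in passage-8 cells than in every other group. It stood at -2.45 and -2.47 in passage-8 cells, 2.29 and 2.85 in CD45-negative cells, 1.50 and 1.66 in CD45-positive cells, with 3.28 and 3.64 in left ventricle. No 2 groups overlapped, and the passage-8 arrays were the only ones below 0. Passage-8 cells were 16.5-fold lower than CD45-positive cells (log2 difference -4.04, SE 0.27, adjusted p = 0.000704), 32.7-fold lower than CD45-negative cells (-5.03, adjusted p = 0.000839) and 60.5-fold lower than ventricle (-5.92, adjusted p = 0.000108, all limma). CD45-positive cells were 3.67-fold lower than ventricle (adjusted p = 0.00309). These 4 differences passed under every alternative and with each array left out, and with normexp the difference from CD45-negative cells was -4.38.

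Between the sorted primary cells the Ly6a difference was small. CD45-negative cells differed from CD45-positive cells by 0.99 log2 units (95% interval 0.32 to 1.66, limma adjusted p = 0.0459), which lies just under the size threshold. Against ventricle they differed by -0.89 (adjusted p = 0.0404), again under that threshold. With 1 CD45-negative array left out, the sizes were 1.27 without the first against CD45-positive cells and -1.17 without the second against ventricle. Those fits take the spread from the other groups. The order from highest to lowest was left ventricle, then the CD45-negative, the CD45-positive and the passage-8 group, of which only the last neighbours differed past the threshold. Ly6a belongs to a cluster of similar genes, and how far its probe binds their transcripts was not tested.

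Cd34 has 2 probes, of which the brighter served in the fit by gene. That probe stood at 3.74 and 3.81 in passage-8 cells, 4.72 and 3.16 in CD45-negative cells, 3.34 and 3.36 in CD45-positive cells, with 5.41 and 5.13 in left ventricle. Both ventricle arrays were above all 6 cell arrays, and the CD45-negative replicates lay on either side of the other cell groups. CD45-positive cells were 3.78-fold lower than ventricle (log2 difference -1.92, SE 0.50, limma adjusted p = 0.0241), a call lost when any 1 of those 4 arrays was left out (adjusted p from 0.0799 to 0.108). Passage-8 cells differed from ventricle by -1.50 (adjusted p = 0.0519) and CD45-negative cells by -1.33 (adjusted p = 0.0717), which did not pass. The passage-8 difference passed without either CD45-negative array, where the pooled spread leaves out that pair. The CD45-negative difference was -2.11 without its first array.

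The dimmer Cd34 probe gave -2.02 and -2.04 in passage-8 cells, -2.21 and -3.68 in CD45-negative cells, -2.48 and -2.66 in CD45-positive cells, with -0.64 and -0.89 in left ventricle. It too was highest in ventricle, and on the second CD45-negative array it was not well above background. In the fit of single probes it passed as lower than ventricle in CD45-positive cells (-1.81, adjusted p = 0.0268) and also in CD45-negative cells (-2.19, adjusted p = 0.0131, limma), where the brighter probe did not pass. Over the 8 arrays the probes correlated at r = 0.88, as a description of arrays that share a slide. Among the cell groups no Cd34 difference passed: CD45-negative against CD45-positive cells gave 0.59 (95% interval -0.63 to 1.81), passage-8 against CD45-positive cells 0.42 (-0.80 to 1.64) and passage-8 against CD45-negative cells -0.16 (-1.38 to 1.06). The first of these was 1.36 without the second CD45-negative array and -0.19 without the first.

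Prom1, the CD133 gene, was measured in CD45-positive cells and ventricle and was not well above background in the other groups. Its brighter probe stood at -7.43 and -6.65 in passage-8 cells and -6.55 and -5.37 in CD45-negative cells, none well above background, at -2.59 and -2.71 in CD45-positive cells, and at -1.57 and -1.01 in left ventricle. All 4 detected arrays lay above the 4 undetected ones. Where a group was undetected, here and below, the fold is given as a lower bound. It is set against the lowest signal well above background of any probe on the array, which is not the detection limit of the probe itself. On that basis passage-8 cells were at least 7.86-fold lower than CD45-positive cells (adjusted p = 0.00254) and at least 20.2-fold lower than ventricle (adjusted p = 0.000480, limma). CD45-negative cells were at least 3.50-fold lower than CD45-positive cells (adjusted p = 0.00734) and at least 9.01-fold lower than ventricle (adjusted p = 0.000886, limma). These bounds, and those given below for other genes, hold only for the background subtraction used here. With normexp the Prom1 log2 differences were smaller than the bounds. They were -1.59 and -2.66 for passage-8 cells and -0.30 and -1.37 for CD45-negative cells, each against CD45-positive cells and then ventricle. All but the -0.30 passed.

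The bound against CD45-positive cells for the CD45-negative group was the least secure of these 4 calls. It missed the threshold without either CD45-positive array, at adjusted p = 0.0592 and 0.0622 (limma). CD45-positive cells differed from ventricle in Prom1 by -1.36 and did not pass (adjusted p = 0.0641), and it passed without either CD45-negative array (adjusted p = 0.0293, limma). On no array was the other Prom1 probe well above background, and it gave no comparison. No comparison of passage-8 with CD45-negative cells was made, since both were below background.

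**Figure D3:**
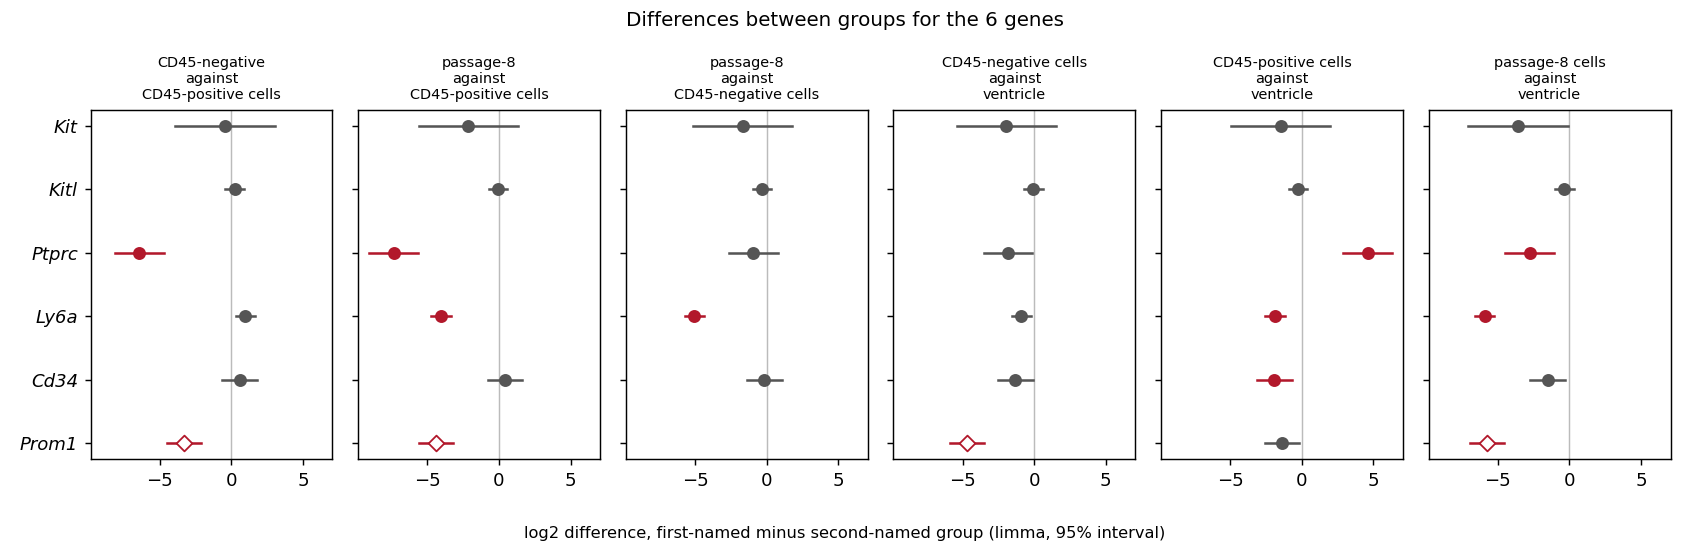
Log2 difference between groups (horizontal axis, first-named minus second-named group) for the 6 genes (rows) in the 6 comparisons (panels), with 95% intervals from the limma fit; red marks pass the threshold, and open diamonds are fitted values where 1 group was not well above background, given in the text as bounds. Intervals are widest for Kit and narrowest for Kitl, and Ly6a passes in all 3 panels that hold passage-8 cells.

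The plot of differences places the 6 genes side by side. In passage-8 cells set against CD45-positive cells, from which they descend, Ptprc, Ly6a and Prom1 were lower and Cd34, Kitl and Kit did not pass. Median differences over all tested genes were 0.17 in CD45-negative and 0.16 in passage-8 against CD45-positive cells, and between -0.03 and 0.06 in the other comparisons, so none of the calls above is of that size.

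Upstream sequence is shown for Kit and Ptprc because their transcription factors were measured on the same arrays. Kit and Ptprc have 2 RefSeq start entries each, and only the first listed was used. The windows are the 250 bases before that start in build GRCm38.p6, at chr5:75574737-75574986 (+) for Kit and chr1:138175306-138175555 (-) for Ptprc. Capitals mark matches, on either strand, to the motifs searched. For the factor PU.1 the core GAGGAA was searched. Sites of GATA factors were searched as AGATAA or, for the other form, as TGATAA. An E-box was searched as CANNTG with any base at N, and the box bound by Sp1 as GGGCGG.
Kit promoter: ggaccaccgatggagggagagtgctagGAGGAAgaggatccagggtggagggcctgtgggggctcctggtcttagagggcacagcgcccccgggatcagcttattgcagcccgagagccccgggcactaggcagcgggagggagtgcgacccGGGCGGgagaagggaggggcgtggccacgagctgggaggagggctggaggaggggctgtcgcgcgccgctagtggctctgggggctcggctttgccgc
Ptprc promoter: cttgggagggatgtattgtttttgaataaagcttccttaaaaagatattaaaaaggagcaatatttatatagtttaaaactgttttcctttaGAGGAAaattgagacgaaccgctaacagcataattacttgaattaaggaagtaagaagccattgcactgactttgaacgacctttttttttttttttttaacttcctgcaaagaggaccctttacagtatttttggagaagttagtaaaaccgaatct
Each window held 1 match to GAGGAA, which 23.3% of 32851 promoter windows of this length held. The Kit window also held 1 GGGCGG, present in 32.7% of windows, and no match overlapped another. Neither window held the GATA motifs (10.0% and 7.9% of windows, in the order above) or an E-box (66.2%), which says only that these letters are not in these windows. The Kit window was 70.8% G and C with 17 CpG, the Ptprc window 31.6% with 4 CpG, against medians of 52.4% and 6 over all windows. Kitl, Cd34 and Prom1 had RefSeq entries too, and Ly6a is named only.

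Of 12 transcription factors known to act on Kit or Ptprc in blood cells, most were higher in CD45-positive cells than in the other cell groups. In CD45-negative against CD45-positive cells, 0 of the 10 tested were higher and 7 lower (median difference -3.64), where 11.3% of all tested genes were higher and 10.5% lower. In passage-8 against CD45-positive cells, 1 of 11 was higher and 8 lower (median -3.69), against 12.7% and 10.9% of all genes. Spi1, which encodes PU.1, was detected above background in the CD45-positive group alone, at -0.06 and 0.04. It was at least 49.1-fold lower in passage-8 cells (adjusted p = 0.000396) and at least 21.9-fold lower in CD45-negative cells (adjusted p = 0.00207, limma). Bounds for this and the genes below carry the limit stated for Prom1, and could be smaller with another background correction. Spi1 and Ptprc were thus both highest in the same 2 arrays. Against ventricle, 1 of 9 factors was higher and 4 lower in CD45-negative cells, where 20.2% and 19.3% of all genes were, and 1 of 10 was higher and 5 lower in passage-8 cells, where 20.3% and 18.9% were. The higher one was in both cases Runx1, a core factor of blood formation (4.98 and 5.87, adjusted p = 0.000357 and 0.000226, limma).

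Lmo2, an adaptor of blood transcription complexes, stood at -7.66 and -7.40 in passage-8 cells (not well above background), -2.06 and 0.87 in CD45-negative cells, 4.94 and 4.99 in CD45-positive cells, with 1.83 and 2.29 in left ventricle. It was lower in passage-8 cells than in CD45-negative cells as well, by at least 32.6-fold (adjusted p = 0.00778, limma). Gata2, which encodes a GATA factor of blood progenitors and mast cells, went the other way, at 0.06 and -0.15 in passage-8 cells, -2.11 and -0.45 in CD45-negative cells, -3.14 and -3.37 in CD45-positive cells, with -0.36 and 0.66 in left ventricle. It was the 1 factor higher in passage-8 than in CD45-positive cells (log2 difference 3.21, adjusted p = 0.0134) and the 1 factor lower in CD45-positive cells than in ventricle (-3.41, adjusted p = 0.00641, limma). On the second CD45-negative array Gata2, Lmo2, Myb (-2.39, against -6.73 on the first) and Ikzf1 (-1.94, against -6.74) were higher than on the first, as Kit and Ptprc were.

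**Figure D4:**
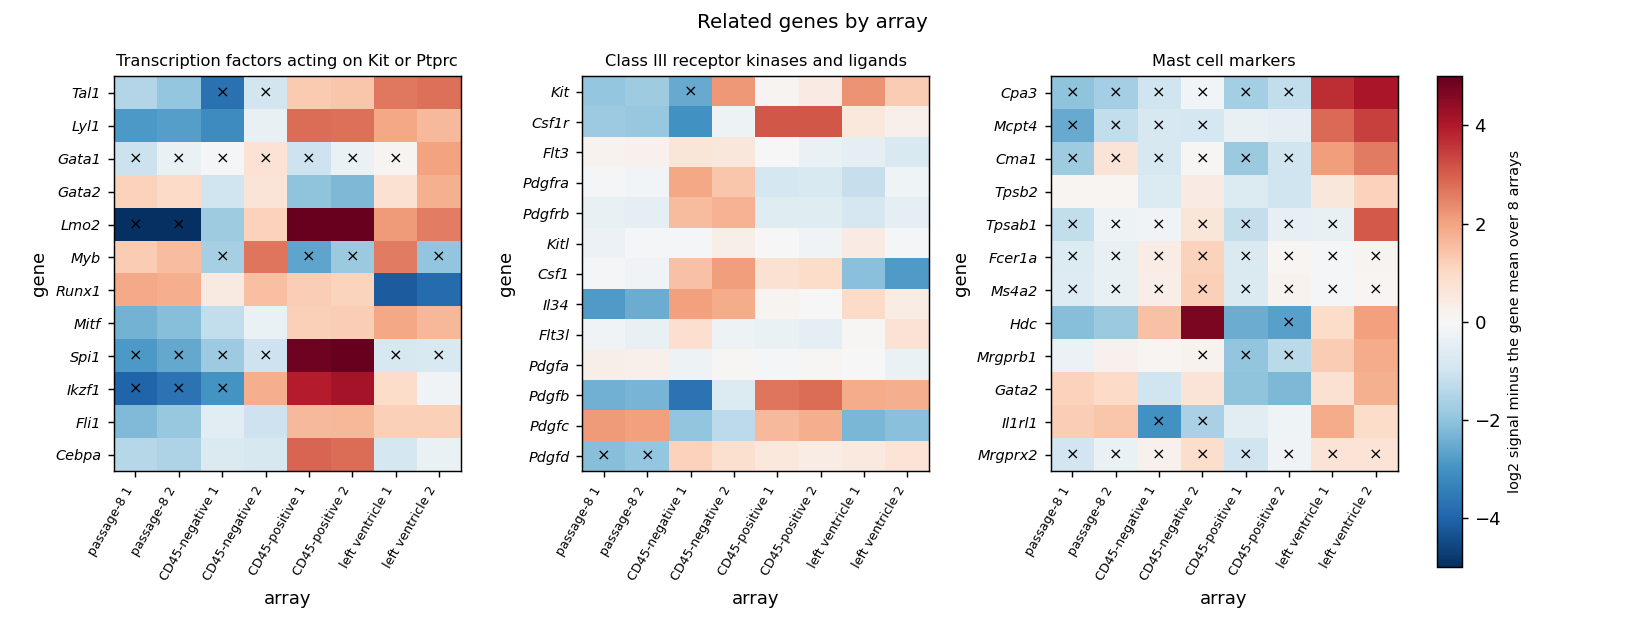
Normalized log2 signal of each gene minus its mean over the 8 arrays (colour, capped at both ends) for 3 lists, with arrays in columns and crosses where a gene was not well above background. The transcription factors Spi1, Ikzf1 and Lmo2 are red in both CD45-positive columns, and 6 of the 12 mast cell markers carry crosses in all 6 cell columns.

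Class III receptors and their ligands diverged around Kit and Kitl. Of 13 such genes in CD45-negative against CD45-positive cells, 3 were higher and 3 lower, against 11.3% and 10.5% of all tested genes. Pdgfra and Pdgfrb, the receptors for platelet-derived growth factors, were higher by 2.48 and 2.28 log2 units (adjusted p = 0.00818 and 0.00319), and Il34, a ligand of the CSF1 receptor, by 1.89 (adjusted p = 0.00767). Csf1r, the CSF1 receptor of macrophages, was lower (log2 difference -4.74, adjusted p = 0.0125), with Pdgfb and Pdgfc also lower (-4.92 and -3.34, limma). In passage-8 against CD45-positive cells 0 were higher and 4 lower, against 12.7% and 10.9% of all genes, led by Pdgfb (-5.10) and Csf1r (-4.95), with Il34 and Pdgfd. Pdgfd was not well above background in passage-8 cells and was at least 5.59-fold lower. In passage-8 against CD45-negative cells 1 was higher (Pdgfc, 3.72) and 5 lower, where 6.98% of all genes were higher and 6.94% lower. Those 5 were Il34, Pdgfd, Pdgfrb, Csf1 and Pdgfra.

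Among 30 genes of the Kit signalling chain, the largest differences were in genes of blood cells that act downstream of several receptors. In CD45-negative against CD45-positive cells, 4 of 29 were higher, a share near the 11.3% of all genes, and 10 lower, against 10.5% (median -0.39). Inpp5d, a lipid phosphatase, and Ptpn6, the phosphatase SHP-1 that restrains c-kit, were lower, with log2 differences of -6.58 and -4.85 (adjusted p = 0.0263 and 0.00358, limma). The 4 higher genes were Socs1, Shc1, Plcg1 and Jak2, by 1.84, 1.68, 1.42 and 1.25. In passage-8 against CD45-positive cells 2 of 30 were higher, Plcg1 and Shc1, and 10 lower (median -0.38), against 12.7% and 10.9% of all genes. In passage-8 against CD45-negative cells 0 of 29 were higher and 4 lower, against 6.98% and 6.94% of all genes: Ptpn6 (-2.69), Lyn (-1.83), Socs1 (-1.63) and Fyn (-1.47).

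Several kinases and phosphatases around CD45 were lower in both cell groups set against CD45-positive cells. Of 18 genes of the CD45 and Src-family kinase chain, which includes Ptprc itself, 14 were tested in CD45-negative cells, with 1 higher and 9 lower (median -2.34), where 11.3% and 10.5% of all genes were. In passage-8 cells 16 were tested, with 0 higher and 8 lower (median -2.10), against 12.7% and 10.9% of all genes. Syk, a kinase that acts after immune receptors, was lower in both, with log2 differences of -3.78 in CD45-negative cells (adjusted p = 0.00210) and -6.63 in passage-8 cells (adjusted p = 0.000396). Lgals1, a galactose-binding lectin known to bind CD45, was the 1 higher gene, by 1.14 in CD45-negative cells (adjusted p = 0.0421, limma). It stood at 8.36 and 8.24 in CD45-negative cells, against 7.24 and 7.08 in CD45-positive cells. Summed signal of the 18 genes, Lgals1 included, did not follow the counts: it was 15590% and 15408% of the 75th percentile in passage-8 cells, 34359% and 31621% in CD45-negative cells and 22592% and 21393% in CD45-positive cells, with 4640% and 3067% in ventricle. On the arrays of both primary cell groups, most of the sum was the signal of Lgals1 alone. Against ventricle, CD45-positive cells had 10 of 16 higher and 2 lower, where 18.1% of all genes were higher and 19.9% lower, the 2 being Zap70 and Ptprcap.

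The receptor-type phosphatases, the family of CD45, held calls in both directions. In CD45-negative against CD45-positive cells 6 of 14 tested were higher and 3 lower (median 0.43), against 11.3% and 10.5% of all genes. The 3 lower ones were Ptprc, Ptpro (-6.78, adjusted p = 0.0176) and Ptpre (-4.39, adjusted p = 0.00386), and Ptprg led the higher ones (2.56, adjusted p = 0.00232, limma). In passage-8 against CD45-positive cells 6 of 17 were higher and 6 lower (median 0.53), against 12.7% and 10.9% of all genes. Ptprz1 was highest among them, at -0.52 and -0.50 in passage-8 cells against -4.88 and -6.59 in CD45-positive cells (log2 difference 5.23, adjusted p = 0.00489, limma). Ptpre and Ptpro were not well above background in passage-8 cells and were at least 295-fold and 246-fold lower.

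Most leukocyte markers that played no part in the sort were, like Ptprc, highest in CD45-positive cells. Of 20 pan-leukocyte genes, 0 were higher and 19 lower in CD45-negative against CD45-positive cells (median -5.83), where 10.5% of all genes were lower, and the counts were the same in passage-8 against CD45-positive cells (median -6.44), where 10.9% were. Summed signal of the list was 2212% and 2116% of the 75th percentile in passage-8 cells, 2247% and 3420% in CD45-negative cells, 37928% and 39164% in CD45-positive cells, with 2309% and 1793% in left ventricle. Between passage-8 cells and ventricle the sum did not follow the counts. There 1 of 19 tested genes was higher and 14 lower, where 20.3% and 18.9% of all genes were. Cd52, a lipid-anchored leukocyte antigen, stood at -7.65 and -4.04 in passage-8 cells, -2.65 and 1.07 in CD45-negative cells, 6.06 and 6.01 in CD45-positive cells, with 0.17 and -0.56 in ventricle. Of 13 tested in passage-8 against CD45-negative cells only 1, Arhgap45, was lower and 0 higher, a share near the 6.94% of all genes that were lower.

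Some members of the Ly6 and uPAR family were lower in passage-8 cells along with Ly6a, while most did not pass. Of 25 matched genes, 7 of 19 tested were lower in passage-8 than in CD45-positive cells and 0 higher (median -1.05), where 10.9% of all genes were lower and 12.7% higher. Ly6a itself counts among them. Against CD45-negative cells 8 of 18 were lower and 0 higher (median -1.13), where 6.94% and 6.98% of all genes were. Ly6c1, a close relative of Ly6a, stood at -0.94 and -1.16 in passage-8 cells, 3.13 and 3.90 in CD45-negative cells, 2.27 and 2.24 in CD45-positive cells, with 5.98 and 6.45 in ventricle. Cd59a, a complement inhibitor, was lower in passage-8 than in CD45-positive cells (log2 difference -5.15, adjusted p = 0.000396) and than in CD45-negative cells (-3.83, adjusted p = 0.000806, limma). For Ly6k the same comparisons gave -4.15 (adjusted p = 0.0142) and -6.66 (adjusted p = 0.00626). Between the primary cells 2 of 18 were higher in CD45-negative cells, Lynx1 and Ly6c1, and 2 lower, Ly6g6d and Cd59a, shares near those of all genes (11.3% and 10.5%).

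The relatives of CD34 and CD133 had their own patterns. Podxl, the sialomucin podocalyxin, stood at -2.71 and -2.59 in passage-8 cells, was not well above background in CD45-negative or CD45-positive cells, and stood at 0.72 and 0.56 in ventricle. It was at least 6.45-fold higher in passage-8 than in CD45-positive cells (adjusted p = 0.00117) and at least 3.51-fold higher than in CD45-negative cells (adjusted p = 0.00273, limma). Podxl2, a related sialomucin, was higher in the same comparisons by 3.18 and 1.82 log2 units (adjusted p = 0.00258 and 0.0245, limma). Both thus stood above the primary cells where Cd34 did not pass. Prom2, the relative of Prom1, was well above background only on the second passage-8 array.

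Among other stem and progenitor antigens more passed as lower than as higher in both cell groups set against CD45-positive cells. Of 20 blood stem cell antigens, a list that holds 4 of the 6 genes, 1 of 18 tested was higher and 8 lower in CD45-negative cells (median -0.24), where 11.3% and 10.5% of all genes were. For passage-8 cells 2 of 18 were higher and 9 lower (median -2.60), against 12.7% and 10.9% of all genes. Itga2b, the platelet integrin CD41, was higher in passage-8 than in CD45-positive cells by 4.14 log2 units (adjusted p = 0.00125, limma). Il7r, the interleukin-7 receptor, was lower in CD45-negative cells (-7.35, adjusted p = 0.0114) and at least 301-fold lower in passage-8 cells (adjusted p = 0.00333, limma). Slamf1 was undetected on all 6 cell arrays and stood at -4.46 and -4.52 in ventricle.

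Of 15 antigens used on cardiac progenitor and stromal cells, 3 of 14 were higher and 0 lower in CD45-negative against CD45-positive cells, namely Thy1 (2.94), Pdgfra (2.48) and Vcam1 (1.33), where 11.3% and 10.5% of all genes were. In passage-8 cells 2 of 14 were higher and 5 lower than in CD45-positive cells (12.7% and 10.9% of all genes), and 0 were higher and 6 lower than in CD45-negative cells (6.98% and 6.94%). The 5 were Thy1, Ly6a, Eng, Abcb1b and Abcb1a. Thy1, a lipid-anchored stromal and thymocyte antigen, stood at -0.86 and -0.68 in passage-8 cells, 7.31 and 6.96 in CD45-negative cells, 4.12 and 4.27 in CD45-positive cells, with 2.28 and 1.54 in ventricle. Like Ly6a, it was lowest in passage-8 cells and no groups overlapped. Eng, a TGF-beta co-receptor, was lower in passage-8 cells than in CD45-positive cells (log2 difference -3.42, adjusted p = 0.000907) and than in CD45-negative cells (-3.95, adjusted p = 0.00121). Vcam1, an adhesion molecule, and Abcg2, a drug exporter, were the 2 higher in passage-8 than in CD45-positive cells, by 2.19 and 1.55 (adjusted p = 0.00291 and 0.00791, limma).

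Markers of mast cells, which depend on c-kit, were measured in part on the cell arrays. Of 12 mast cell markers, 8 and 9 were well above background on the ventricle arrays, against 3 to 5 on each cell array. Their summed signal was 193% and 189% of the 75th percentile in passage-8 cells, 125% and 675% in CD45-negative cells and 62.6% and 58.4% in CD45-positive cells, with 318% and 513% in ventricle. The second CD45-negative array had the highest sum of the 8, but only 3 of the 12 markers were well above background on it. Most of its sum was the signal of Hdc alone. The defining protease Cpa3, with Cma1, Tpsab1, Fcer1a, Ms4a2 and Mrgprx2, was not detected above background on any cell array, nor was Mcpt4 on the arrays of passage-8 and CD45-negative cells. Cpa3, carboxypeptidase A3, was at least 12.3-fold lower in passage-8 cells, 5.46-fold lower in CD45-negative cells and 10.0-fold lower in CD45-positive cells than in ventricle, where it stood at -2.22 and -1.80. Of 5 mast cell genes tested in CD45-negative against CD45-positive cells, 1 was higher, Hdc (log2 difference 5.70, adjusted p = 0.0135), and 1 lower, Il1rl1, the receptor of interleukin-33, by at least 1.49-fold (adjusted p = 0.0475, limma), where 11.3% and 10.5% of all genes were. Melanocyte markers summed to 157% and 195% in passage-8 cells, 254% and 454% in CD45-negative cells and 1252% and 1280% in CD45-positive cells, with 1956% and 1726% in ventricle. Of these 10 genes, which include Mitf from the transcription factors above, 6 were well above background on each CD45-positive array. Dct was well above background only in ventricle (-0.94 and -0.95) and Tyrp1 on no array. In CD45-negative against CD45-positive cells 0 of 6 tested were higher and 2 lower, where 11.3% and 10.5% of all genes were.

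The 4 markers of interstitial cells of Cajal besides Kit summed to between 507% and 807% on the cell arrays, against 770% and 873% in ventricle. Ano1, a chloride channel, was higher in passage-8 than in CD45-positive cells by 6.22 log2 units (adjusted p = 0.00210) and Etv1, a transcription factor, lower (-4.63, adjusted p = 0.000524). Against CD45-negative cells the values were 6.44 (adjusted p = 0.00367) and -4.22 (adjusted p = 0.00106, limma). Prkcq and Gpr20 were not tested among the cell groups.

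Some proteases that can release c-kit or its ligand from the cell surface passed where Kitl did not. Of 11 shedding enzymes and their inhibitor Timp3, 1 of 10 was higher and 3 lower in CD45-negative against CD45-positive cells, where 11.3% and 10.5% of all genes were: Adam19 was higher (2.21), and Adam8 (-5.87), Mmp9 and Adam33 were lower. Mmp9, gelatinase B, which releases soluble stem cell factor in mouse bone marrow, was detected above background in the CD45-positive group alone, at 0.03 and 0.31. It was at least 24.7-fold lower in CD45-negative cells (adjusted p = 0.00445) and at least 55.5-fold lower in passage-8 cells (adjusted p = 0.00161, limma). Adam17, which cleaves c-kit, was lower in passage-8 than in CD45-positive cells (-1.74, adjusted p = 0.0195, limma). In that comparison 1 of 10 was higher and 4 lower, against 12.7% and 10.9% of all genes.

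The genes whose pattern over the 8 arrays was most like each member were taken from 13235 genes by Pearson's r, as a description of arrays that share a slide and differ in background. For Ptprc these were Otulinl, Snx20, Was, F7 and Unc93a2 (r from 0.994 to 0.995), of which Was is a cytoskeletal regulator of blood cells. For Ly6a they were Dpep1, Ccdc124, Eng, Bag1 and Lama2 (0.986 to 0.992). Dpep1 stood at -3.22 and -3.01 in passage-8 cells, 2.36 and 2.05 in CD45-negative cells, 1.20 and 1.23 in CD45-positive cells, with 2.41 and 3.44 in ventricle, so it too was below 0 only in passage-8 cells. For Kit they included Iqcg, Spopfm2, Rragd and Ankub1 (0.944 to 0.973), and Iqcg stood at -2.45 and -0.94 on the CD45-negative arrays, split in the same direction as Kit. For Cd34 they were Coro2b, Ogn, Mettl15, Synj2bp and Coq4 (0.986 to 0.992), for Prom1 Ppbp, Olfr78, Klra8, Sh2d3c and Slitrk6 (0.990 to 0.995) and for Kitl Aym1, Stk33, Smok3b, Csprs and Lrrc38 (0.935 to 0.976).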

How the data were processed

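Total RNA of 8 samples, 2 per group, was labelled with Cy3 and hybridised to Agilent arrays. Per the submitters' processing notes, Agilent Feature Extraction 10.7 made the deposited scanner files of spot intensity. Per the file headers, background was subtracted from each processed intensity within its array, and arrays were not normalized to each other. The authors' deposited value table holds log2 values, with column medians of 6.087 to 6.094, whose ranks within an array equal those of the median spot signal minus local background. How its arrays were scaled: not given in the sources used here.

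Of 62976 spots an array, the 3671 controls and 167 to 248 outlier spots per array were left out, and repeated spots were averaged. A probe counted as detected unless most of its spots failed the call of well above background, and each gene was read from its brightest probe by mean over 8 arrays. Accessions of 27235 probes matched a RefSeq gene table, which updated 2838 symbols. The 75th percentile of an array's log2 processed signal was subtracted from its values.

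A single fit over the 8 arrays used limma 3.58.1 (R 4.3.3), a mean for each group and a spread pooled over groups. Exact permutation tests are omitted because the smallest p they allow with 2 arrays a group is 0.333. All tests are two-sided. The comparison of CD45-negative with CD45-positive cells was tested on simulated data of 21596 genes. It found 61 of 100 genes with a true difference of 2 log2 units, 94 of 100 with one of 4, and 4 genes with none. The simulation gave every group the same spread for a gene and changed only genes well above background on all 8 arrays. These rates may therefore not hold for dim genes or for the wider spread of the CD45-negative pair.

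The 6 genes, the gene lists and the tests were chosen with earlier results of these data known. Named genes were the 6 members, the 5 genes most like each by Pearson's r (range of at least 1 log2 unit), and from each list up to 4 passing genes per direction, with all behind a count of 5 or fewer. Other list genes were named after their values were seen, where they were undetected, split between the CD45-negative arrays, or (Adam17, Thy1 and Gata2 levels) close to a member. Ly6c2 was not matched on the array. Some genes that this rule takes are not reported here by name. Alternatives covered normalization, background correction (normexp, offset 50), the authors' table, filters, probes per gene, thresholds, moderation, the arrays fitted, array weights, the replicate number as a block and each array left out.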

Additional observations from a re-analysis of the deposited data

How the results depend on the processing

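Of the alternative log2 differences of the 6 genes, 643 kept their direction and their side of the threshold, 54 came to pass, 12 no longer passed and 16 changed sign. For Kit, CD45-negative against CD45-positive cells gave 0.61 with normexp and 0.017 in the authors' table. For Kitl, CD45-negative cells against ventricle gave 0.012 with quantile normalization, 0.054 with normexp and 0.105 in the authors' table. For Cd34, passage-8 against CD45-negative cells gave 0.0014 with normexp and 0.38 with the mean of both probes. None of these passed, and the cause was not tested.

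With 1 array left out, Kit ranged from -2.80 to 1.90 in CD45-negative against CD45-positive cells, from -4.02 to 0.67 in passage-8 against CD45-negative cells and from -4.28 to 0.42 in CD45-negative cells against ventricle. In the same order Cd34 ranged from -0.19 to 1.36 and from -0.94 to 0.62 in the first pair of comparisons. Ptprc ranged from -2.02 to 0.16 in passage-8 against CD45-negative cells, and Kitl from -0.18 to 0.017 in passage-8 against CD45-positive cells and from -0.30 to 0.20 in CD45-negative cells against ventricle.

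The count of the 6 genes passing moved as follows. In CD45-negative against CD45-positive cells it was 1 with normexp and with the mean of all probes, 0 where only the 3 genes well above background on all 4 arrays were tested, and 1 to 4 with 1 array left out. Prom1 was then the gene lost, at -0.30 with normexp (adjusted p = 0.518) and -1.24 with the mean of both probes (adjusted p = 0.148). In passage-8 against CD45-negative cells it was 2 with normexp, which added Ptprc, and 1 to 3 with 1 array left out. In CD45-negative cells against ventricle it was 3 with quantile normalization, centring on the median, normexp, the authors' table and moderation with trend, 2 with the mean of all probes and with no fold threshold, 0 where all 4 arrays had to be well above background, and 1 to 4 with 1 array left out. In CD45-positive cells against ventricle it was 5 on the 4 arrays compared alone, and 2 to 5 with 1 array left out. In passage-8 cells against ventricle it was 5 with quantile normalization, normexp, the authors' table, the 4 arrays alone, moderation with trend and array weights, and 2 to 5 with 1 array left out.

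Over all genes, CD45-negative against CD45-positive cells gave 1978 passing on its 4 arrays alone, against 4708, and 693 to 6023 with 1 array left out, where a lone array is assumed to vary like the other groups. Passage-8 against CD45-negative cells gave 181 on its 4 arrays alone and 2076 with array weights, against 3189, and 851 to 5198 with 1 array left out. The ranges were 2193 to 6365 in passage-8 against CD45-positive cells and 5674 to 9423 in CD45-positive cells against ventricle. Normexp moved the median of all tested genes by -0.23 to 0.16 across the comparisons.

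Replicate numbers were also the rows of the slide. Same-numbered arrays did not deviate together in every pair of groups (correlations from -0.20 to 0.19 over 18053 genes). Too few arrays per group were run for this to show whether samples were paired, and the number was left out of the main fit. With the number as a replicate block, 4374 genes passed in CD45-negative against CD45-positive cells, and among the 6 genes only the call of Prom1 in CD45-positive cells against ventricle changed (-1.36, adjusted p = 0.0336). Dim probes near background limit Kit and Ptprc in passage-8 cells and on the first CD45-negative array, and Prom1 in passage-8 and CD45-negative cells. The sizes of the Ptprc folds against CD45-positive cells are uncertain for that reason.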
